A study of Mus musculus with 2 samples.

Results

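The miRNAs miR-1, miR-133 and miR-206 are the classical miRNAs of striated muscle, and 7 annotated mouse hairpins were described here: Mir1a-1, Mir1a-2, Mir1b, Mir206, Mir133a-1, Mir133a-2 and Mir133b. They were chosen by gene name, as the hairpins of the 3 loci that pair a miR-1 or miR-206 hairpin with a miR-133 hairpin, together with Mir1b, and all 7 were found among the 2202 miRNA genes of the deposited tables. Heart tissue of male adult mice of strain 5xFAD/CAST, 8 to 10 months of age, was measured by microRNA-seq in 2 libraries. 5xFAD names a transgenic line used to model Alzheimer's disease, in which the Thy1 promoter drives mutant human amyloid precursor protein and presenilin genes in neurons, and CAST is a wild-derived inbred strain. Both libraries carry the same strain label, and no library without the transgenes was included. The labels put both libraries in 1 group as biological replicates 1 and 2, with 1 donor entry and separate biosample entries, and they do not say that the replicates were separate animals. There was no second genotype, treatment or age, so the levels of the hairpins and the difference between the libraries were all that could be described, and that difference may be technical.

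miR-1 and miR-206 share a seed, the bases 2 to 8 of the mature miRNA that pair with target mRNAs, and the miR-133 members share another. In muscle, each locus makes a miR-1 or miR-206 hairpin and a miR-133 hairpin from a common primary transcript. miR-1 is known to promote muscle differentiation, miR-133 to restrain proliferation and hypertrophy of heart muscle cells, and miR-206 with miR-133b to be largely a product of skeletal muscle. miR-1 and miR-133a are known as abundant miRNAs of the adult heart.

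Sequences were taken from a table of RefSeq (GRCm38.p6), which matched 3 of the 7 members by symbol, Mir206, Mir133b and Mir1a-1, with 5 mature arms. Mir1a-2, Mir133a-1, Mir133a-2 and Mir1b had no entry in it, and of Mir1a-1 it held the 5′ arm. The hairpin of Mir206 is shown first because it alone had no stretch in common with another hairpin at the lengths compared below. Capitals mark its 5′ and 3′ mature arms. In the arms that follow, capitals mark the seed.

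Mir206: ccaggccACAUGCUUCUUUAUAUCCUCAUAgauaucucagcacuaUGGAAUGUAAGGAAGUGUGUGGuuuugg
miR-206-3p: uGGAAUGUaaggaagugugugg
miR-133b-3p: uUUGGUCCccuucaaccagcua
miR-206-5p: aCAUGCUUcuuuauauccucaua
miR-1a-1-5p: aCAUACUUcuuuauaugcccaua
miR-133b-5p: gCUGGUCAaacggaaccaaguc

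The seed of miR-206-3p, GGAAUGU, was found once in the hairpins Mir1a-1, Mir1a-2 and Mir206 and once on the opposite strand of Mir1b, and in 13 of the 2202 annotated hairpins on their own strand. The seed of miR-133b-3p, UUGGUCC, was found once in each of Mir133a-1, Mir133a-2 and Mir133b, and in 9 of the 2202 hairpins. Among the 1738 mature arms of the RefSeq table, which do not include the 3′ arms of miR-1a and miR-133a, GGAAUGU was the seed of miR-206-3p, miR-6349 and miR-6382, and UUGGUCC that of miR-133b-3p, so these lists are not complete. The hairpins Mir6349 and Mir6382 had 0 counts in both libraries. The 5′ arms miR-1a-1-5p and miR-206-5p, both of 23 bases, differed at 3 positions, A5G, G17C and C19U, counted from 1 at the 5′ end with the base of miR-1a-1-5p first. The first of these lies within the seed.

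The annotated hairpins of these miRNAs fall into near copies and distinct members. Mir1a-1 and Mir1a-2 shared a stretch of 28 bases, which held the GGAAUGU seed and lay at bases 45 to 72 of Mir1a-1 and 43 to 70 of Mir1a-2. Mir133a-1 and Mir133a-2 shared stretches of 24 and 31 bases, the longer of which held the UUGGUCC seed. These stretches made up 80.9% of the 68 bases of Mir133a-1 and 52.9% of the 104 bases of Mir133a-2. Mir206 shared at most 13 bases with Mir1a-1 and with Mir1a-2, and miR-133b-3p had a run of 21 of its 22 bases in common with both miR-133a hairpins.

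**Figure D1:**
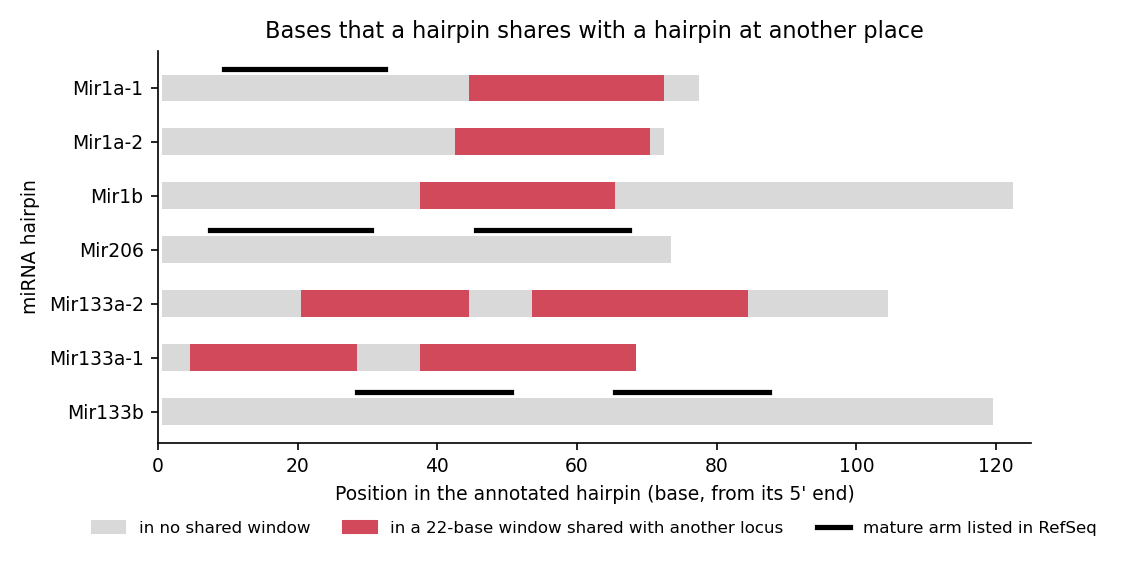
Bases of each annotated hairpin (x axis, position from its 5′ end) that lie in a window of 22 bases also found in a hairpin at another place, in red, with the mature arms listed in RefSeq as black lines. Mir206 and Mir133b hold no such window, Mir1a-1, Mir1a-2 and Mir1b hold a stretch of 28 bases each, and the miR-133a hairpins hold stretches of 24 and 31 bases.

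Counted in windows of 22 bases, a usual length of a mature miRNA, 7 of 56 windows of Mir1a-1, 7 of 51 of Mir1a-2, 13 of 83 of Mir133a-2 and 13 of 47 of Mir133a-1 were found at another hairpin. Mir206 and Mir133b had 0 of 52 and 0 of 98. In windows of 20 bases Mir133b had 2 of 100, both shared with the miR-133a hairpins. A read lying wholly within a shared stretch matches more than 1 place, and the deposited tables give reads that aligned to several places to no gene. They held 4576006 such reads in replicate 1 and 6650307 in replicate 2, which was 42.3% and 46.8% of all reads. How many of them came from miR-1 or miR-133 is not given in the tables and was not tested, so the levels below count only reads given to a single place. The mature arm miR-1a-1-5p lies at bases 10 to 32 of its hairpin, outside the shared stretch.

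The hairpins of the 3 loci differ in their surroundings. On mm10, with GENCODE M21, Mir1a-1 (ENSMUSG00000070144.1) lies on chromosome 2 from 180389048 to 180389124 and Mir133a-2 (ENSMUSG00000065460.1) from 180398379 to 180398482, both on the plus strand and between genes, 9254 bases apart. Mir1a-2 (ENSMUSG00000106348.1) lies on chromosome 18 from 10785481 to 10785552 and Mir133a-1 (ENSMUSG00000065399.2) from 10782909 to 10782976, both on the minus strand and 2504 bases apart. Both are in an intron of the antisense gene Mir133a-1hg and opposite an intron of Mib1, a ubiquitin ligase gene of Notch signalling. Mir1b (ENSMUSG00000080662.1) is annotated on the other strand from 10785446 to 10785567 and covers all 72 bases of Mir1a-2. Mir206 (ENSMUSG00000065559.1) lies on chromosome 1 from 20679010 to 20679082 and Mir133b (ENSMUSG00000065480.1) from 20682769 to 20682887, 3686 bases apart on the plus strand. Exons of the long noncoding RNA gene Gm28653 cover all 119 bases of Mir133b and 60 of the 73 bases of Mir206.

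**Figure D2:**
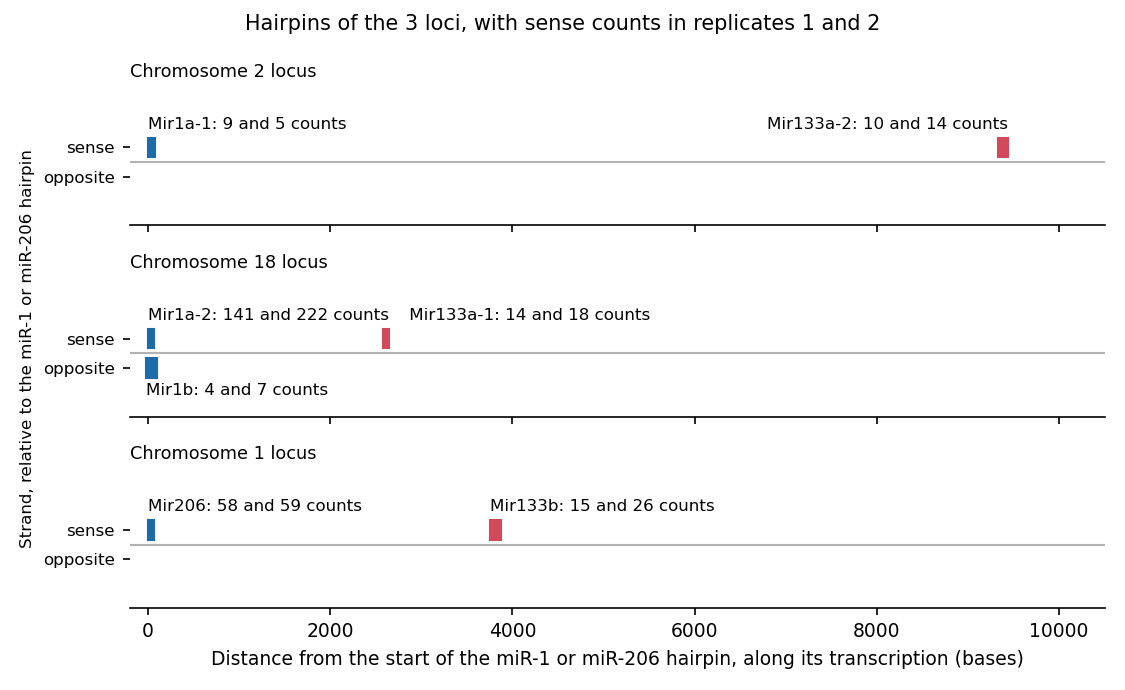
The 3 loci drawn to scale, with distance in bases from the start of the miR-1 or miR-206 hairpin on the x axis, hairpins of the same strand above the line and of the opposite strand below it, and miR-133 hairpins in red. The labels give the sense counts of replicates 1 and 2, and Mir1a-2 held the highest counts with 141 and 222.

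The counts behind these hairpins were low. The 7 members together had 251 sense counts of 3889280 in replicate 1 and 351 of 5058613 in replicate 2. This was 64.5 CPM, counts per 1000000 sense counts over all miRNA genes, in replicate 1 (95% Clopper-Pearson interval 56.8 to 73.0) and 69.4 CPM in replicate 2 (62.3 to 77.0), a mean of 67.0 ± 3.43 CPM (SD, n = 2). The reads aligned to several places numbered 18231 and 18947 for each count at a member. All 7 members had at least 1 count in both libraries, and 5 had at least 10 in both, the minimum used here to call a hairpin detected. Mir1a-1 and Mir1b fell below that minimum. Intervals cover counting error only and treat each read as an independent molecule. Where PCR copies of a molecule were counted more than 1 time, they are too narrow.

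The miR-1 and miR-206 hairpins ranged over more than 1 order of magnitude. Mir1a-2, the copy on chromosome 18, had 141 counts in replicate 1 and 222 in replicate 2. Its level was 36.3 CPM (30.5 to 42.8) and 43.9 CPM (38.3 to 50.1), a mean of 40.1 ± 5.40 CPM. It ranked 176 among all hairpins, near the middle of the 325 detected ones, and held 56.2% and 63.2% of the summed counts of the 7 members.

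Mir1a-1, the copy on chromosome 2, had 9 and 5 counts, or 2.31 and 0.988 CPM. Mir1a-2 exceeded it by 15.7 to 1 in replicate 1 (95% exact interval 8.02 to 35.0) and by 44.4 to 1 in replicate 2 (18.7 to 138). The intervals do not reach 1 in either library. The copies are of near equal length, 72 and 77 bases, and share the stretch that holds the seed. Reads lying wholly within that stretch are in neither count. The ratio of Mir1a-2 to Mir1a-1 rests on reads given to a single place, and the ratio of all miR-1 reads from the copies was not measured.

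Mir206, the skeletal muscle member, had 58 and 59 counts, or 14.9 CPM (11.3 to 19.3) and 11.7 CPM (8.88 to 15.0), with a mean of 13.3 ± 2.30 CPM and overlapping intervals. Of its 56 windows of 18 bases, 0 occurred in another annotated hairpin. No other marker of skeletal muscle was among the lists, so whether skeletal muscle was present in the samples was not tested.

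Mir1b had 4 and 7 counts, or 1.03 and 1.38 CPM, with lower interval bounds of 0.280 and 0.556 CPM, below the 0.771 and 0.593 CPM that a count of 0 allows as 3 counts. Mir1b and Mir1a-2 lie opposite each other, and the strands were far from even: the Mir1b strand held 2.76% of the reads there in replicate 1 (0.757 to 6.91) and 3.06% in replicate 2 (1.24 to 6.20). In the deposited column that ignores strand both hairpins had 0 counts, while the other 5 members kept the same counts as in the sense column. Those 5 had 0 opposite-strand counts.

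The miR-133 hairpins lay close together. Mir133b had 15 and 26 counts, or 3.86 and 5.14 CPM, a mean of 4.50 ± 0.907 CPM. Mir133a-1 had 14 and 18 counts, or 3.60 and 3.56 CPM, a mean of 3.58 ± 0.029 CPM. Mir133a-2 had 10 and 14 counts, or 2.57 and 2.77 CPM, a mean of 2.67 ± 0.139 CPM. The 95% intervals of all 3 overlapped in both libraries. Unlike the miR-1 copies, the miR-133a copies had similar counts, with Mir133a-1 over Mir133a-2 at 1.40 to 1 (0.578 to 3.52) and 1.29 to 1 (0.604 to 2.79). That difference between the copy pairs was not tested itself, and the intervals of the pairs do not overlap in either library. The pairs also differ in how much sequence the copies share. Shared stretches made up 80.9% of Mir133a-1 and 52.9% of Mir133a-2, against 38.9% of Mir1a-2 and 36.4% of Mir1a-1. Reads lying wholly within those stretches are not in these counts.

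**Figure D3:**
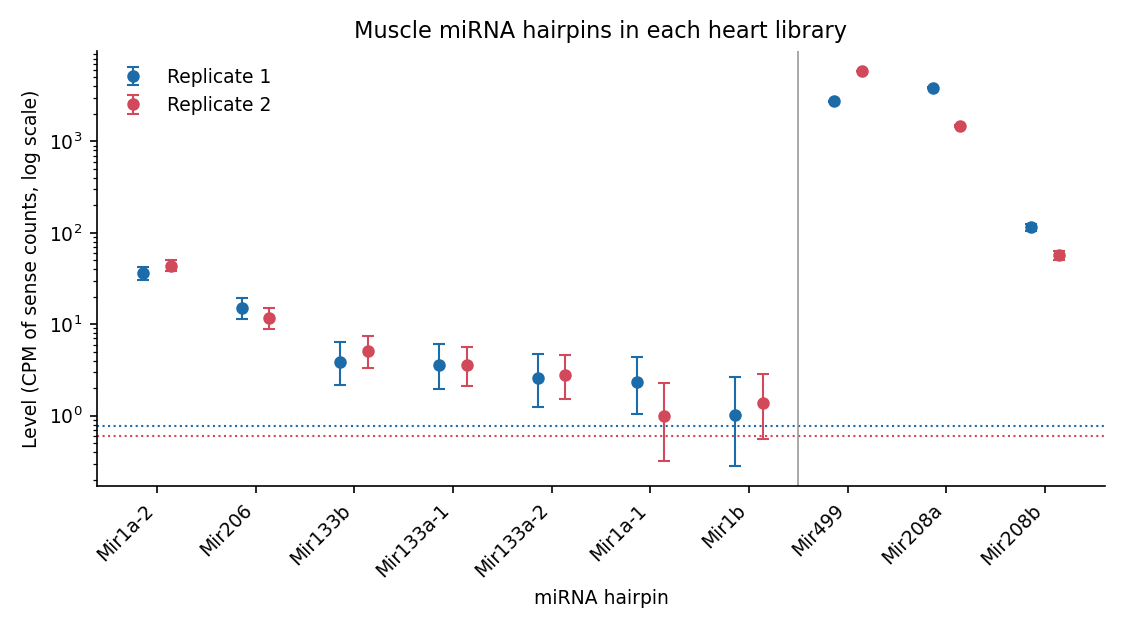
Level of each hairpin in CPM of sense counts (y axis, log scale) in replicate 1 (blue) and replicate 2 (red), with 95% Clopper-Pearson intervals and dotted lines at 3 counts of each library. The members fall from 40.1 CPM for Mir1a-2 to 1.21 CPM for Mir1b in the mean, and to the right of the grey line the myosin intron hairpins Mir499, Mir208a and Mir208b lie above all of them in both libraries. Reads aligned to several places are in none of these levels.

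In order of mean level the members stood as Mir1a-2, Mir206, Mir133b, Mir133a-1, Mir133a-2, Mir1a-1 and Mir1b. This is an order of reads given to a single place. Each miR-1a and miR-133a hairpin has a shared stretch with the seed, while Mir206 holds no shared window at the lengths compared. Mir133b holds none of 22 bases, but its bases 66 to 86, which hold the seed of miR-133b-3p, are shared with the miR-133a hairpins. The order by all reads of these miRNAs was not measured. The same counts set the order of the members, so the ratios of neighbours, 12 over both libraries, are given as a description, and their exact intervals cover counting error only. Mir1a-2 stood to Mir206 as 2.43 to 1 in replicate 1 (1.78 to 3.36) and 3.76 to 1 in replicate 2 (2.81 to 5.10). Mir206 stood to Mir133b as 3.87 to 1 (2.16 to 7.35) and 2.27 to 1 (1.41 to 3.75). The intervals of the other 4 pairs included 1 in both libraries, and Mir1a-1 and Mir1b changed places between the libraries. Per 100 bases of hairpin the levels were 55.7 CPM for Mir1a-2, 18.2 for Mir206, 5.26 for Mir133a-1, 3.78 for Mir133b, 2.57 for Mir133a-2, 2.14 for Mir1a-1 and 0.989 for Mir1b, so only Mir133a-1 and Mir133b exchanged places.

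The balance of partner hairpins was measured as counts of the miR-133 hairpin per count of its miR-1 or miR-206 partner. At the chromosome 18 locus, Mir133a-1 had 0.099 counts per count of Mir1a-2 in replicate 1, with a 95% exact interval of 0.053 to 0.172, while replicate 2 had 0.081 (0.047 to 0.131). At the chromosome 1 locus, Mir133b had 0.259 counts per count of Mir206 (0.136 to 0.462) and 0.441 (0.267 to 0.710). At the chromosome 2 locus, Mir133a-2 had 1.11 counts per count of Mir1a-1 (0.406 to 3.09) and 2.80 (0.953 to 9.93). The intervals of the chromosome 18 and chromosome 2 loci did not overlap in either library, while those of the chromosome 1 locus overlapped with both others in replicate 1 and with neither in replicate 2. Per base of hairpin the mean ratios were 0.095, 0.214 and 1.45, in the same order of loci. Partners differ in how much of them is shared with another locus. Shared windows of 22 bases covered 80.9% of the bases of Mir133a-1, 38.9% of Mir1a-2, 52.9% of Mir133a-2 and 36.4% of Mir1a-1. They covered 0% of Mir206 and Mir133b. Shared windows of 18 or 20 bases covered 17.6% of Mir133b, at bases 66 to 86, where miR-133b-3p lies, and 0% of Mir206. Reads lying wholly within shared stretches are not counted, and their part in the differences between loci was not tested.

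Within each locus the balance did not differ detectably between the libraries, with Fisher's exact test (two-sided) giving adjusted p = 0.578 for the chromosome 18 locus and 0.470 for each of the others, over 3 loci. Over all loci, the share of miR-133 hairpins in the members' counts was 15.5% (11.3 to 20.6) and 16.5% (12.8 to 20.8) for replicates 1 and 2, and Mir1a-1, Mir1a-2 and Mir206 together held 82.9% and 81.5%. The chromosome 18 locus alone held 63.3% and 70.4%, the chromosome 1 locus 29.1% and 24.2%, and the chromosome 2 locus 7.57% and 5.41%.

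Of the 7 members, 1 was called between the libraries at an adjusted p under 0.05 (exact binomial test at TMM effective library sizes, which covers counting error only), against 45.4% of the 412 hairpins tested, 187 in all. Mir1a-2 was 1.31-fold higher in replicate 2 (log2 ratio 0.39, adjusted p = 0.0227 by the exact binomial test). Hairpins called higher in replicate 2 made up 22.8% of those tested. Of the 228 tested hairpins with a summed count in the range of the members, from 11 to 363, 21.1% were called. The log2 ratios of the 7 members had a median of 0.17, against -0.0038 over all tested hairpins, with 5 above 0 and 2 below.

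The call of Mir1a-2 was lost with total-count scaling (log2 ratio 0.27, adjusted p = 0.148, exact binomial test), a scaling that moved the median log2 ratio of detected hairpins from 0.0055 to -0.12. Under it 79 hairpins were called higher in replicate 2 and 120 in replicate 1, against 94 and 93. Mir206 was at -0.21 (adjusted p = 0.534) and Mir1a-1 at -0.66 (adjusted p = 0.302) on the log2 scale by the exact binomial test, and the miR-133 hairpins were at 0.44 for Mir133b, 0.17 for Mir133a-2 and 0.085 for Mir133a-1.

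**Figure D4:**
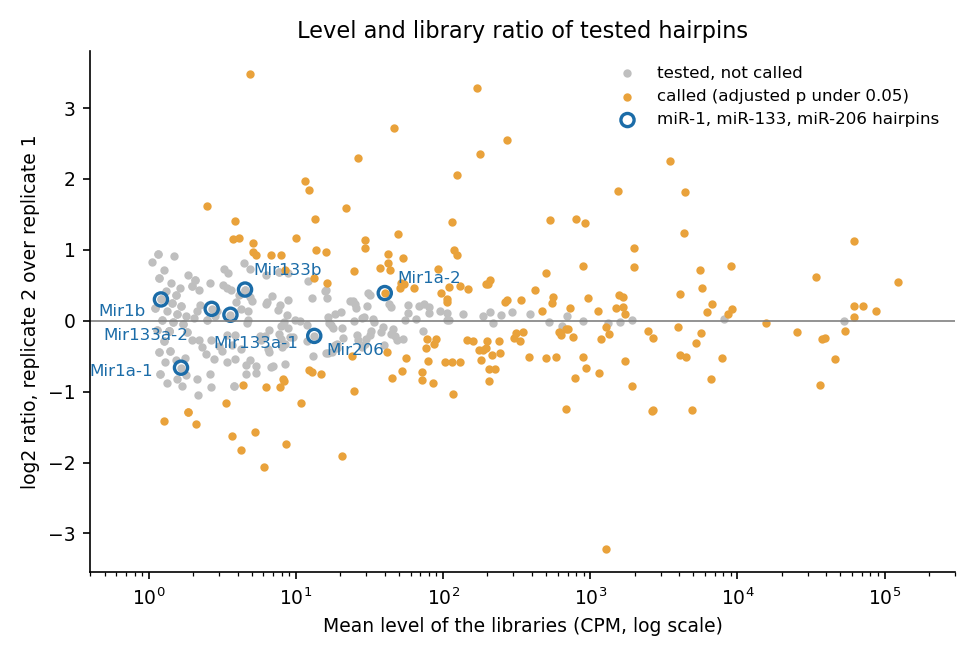
Log2 ratio of replicate 2 over replicate 1 (y axis) against the mean level in CPM (x axis, log scale) for the 412 tested hairpins, called ones in orange and the 7 muscle hairpins as blue rings. The members lie between -0.66 and 0.44, and Mir1a-2 is the 1 member called.

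Other hairpins known from heart muscle were read at higher levels. Mir499, Mir208a and Mir208b, which lie in introns of myosin heavy chain genes, had a summed level of 6731 CPM in replicate 1 and 7430 CPM in replicate 2, against 64.5 and 69.4 CPM for the 7 members. Mir499 exceeded Mir1a-2 by 75.4 to 1 in replicate 1 (95% exact interval 63.8 to 89.6) and 134 to 1 in replicate 2 (118 to 154), and Mir208a exceeded it by 107 to 1 (90.8 to 127) and 33.8 to 1 (29.6 to 38.9). Mir208b, of the slow myosin gene, exceeded it by 3.16 to 1 (2.61 to 3.85) and 1.29 to 1 (1.08 to 1.54). These hairpins are of similar length, 72 bases for Mir1a-2 and 77 to 83 for the others, so the order is the same per base. All of these levels and ratios rest on reads given to a single place. Reads lying wholly within the 28 bases that Mir1a-2 shares with Mir1a-1, which hold the seed, are left out. How Mir499, Mir208a and Mir208b stand to all miR-1 reads was not measured. Mir486 and Mir3107, annotated opposite each other and known from muscle and red cells, stood at 1180 ± 218 and 29.5 ± 6.71 CPM. Of these 5 hairpins 4 were called between the libraries, against 45.4% of all tested hairpins and 79.3% of the 174 with a summed count above that of any member, a range that holds the 4 called ones. Mir499 was higher in replicate 2 (2.35-fold), Mir208a (2.40-fold), Mir208b (1.85-fold) and Mir486 (1.19-fold) were higher in replicate 1, and Mir3107 was not called (adjusted p = 0.114, exact binomial test).

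The marker lists of other heart and blood cells gave the tissue context. Summed levels in replicates 1 and 2 were 87116 and 87788 CPM for endothelial, 30137 and 41747 for smooth muscle, 6830 and 5000.4 for leukocyte, 2610 and 1265 for fibroblast, and 320 and 217 CPM for erythroid hairpins. Single hairpins made up most of several sums, and members of a list did not always move together. In the fibroblast list Mir214 had 10103 of the 10152 counts in replicate 1, Mir199b was at 7.46 and 8.10 CPM, and Mir199a-1 had 0 counts in both libraries. In the erythroid list Mir451a was lower in replicate 2 (288 and 165 CPM) and Mir144 was higher there (32.1 and 52.4 CPM), both called by the exact binomial test. Mir126a gave 87115 and 87787 CPM of the endothelial sum. The 6 neuronal hairpins had 0 and 4 counts in sum, with Mir124a-1, Mir124a-2, Mir124a-3 and Mir9-2 at 0. All of these sums rest on reads given to a single place, and sequence shared among the listed hairpins was not described. A count of 0 or near it at a listed hairpin therefore does not show that its miRNA was absent. The part of these cell types in the levels of the muscle hairpins was not tested. In tissue RNA, fewer cells of a type and less RNA per cell cannot be told apart.

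Hairpins of other kinds stood at levels like those of the members in both libraries, by distance in log2(CPM + 1) over the 2 libraries. Closest to Mir1a-2 were Mir18, Mir188 and Mir409, at 42.7 ± 2.54, 44.0 ± 1.51 and 43.4 ± 12.7 CPM. Closest to Mir206 were Mir218-2, Mir362 and Mir7-1, at 13.0 ± 4.14, 11.9 ± 2.51 and 11.8 ± 1.08 CPM. Closest to Mir133b were Mir1941, with the same 15 and 26 counts, Mir33 and Mir141, at 4.85 ± 0.683 and 4.07 ± 0.670 CPM for the last pair. With 2 libraries this likeness is one of level only.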

How the data were processed

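MicroRNA-seq of heart tissue was deposited as 1 table per library, with raw read counts per annotated miRNA hairpin in 3 columns (ignoring strand, and each strand) and 4 summary lines. Build mm10 and annotation GENCODE M21 come from a description text the authors deposited beside the tables. For the aligner and read filters, nothing is stated in the labels or files used here. Both arms of a hairpin are counted together. The deposited tables name no columns. Which column ignores strand and which holds each strand was judged from the summary lines and totals, the third column, with the larger total of the strand columns in both libraries, was taken as sense, and the 4 summary lines were used only as read totals.

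Levels are CPM of sense counts (3889280 and 5058613), with SD over 2 libraries and exact Clopper-Pearson intervals of 95%. A count of 0 allows up to 3 counts. Hairpins with a summed count of at least 10 were compared by a two-sided exact binomial test at effective library sizes from TMM in edgeR 4.0.16, Benjamini-Hochberg adjusted over all 412 at 0.05. Log2 ratios were taken after adding 1 CPM, so those of low hairpins are understated. With a single group, no quasi-likelihood test was run. Locus ratios were compared by Fisher's exact test. Neighbours in level were to be compared by an exact binomial test, which is replaced in the text by ratios with exact intervals, since the same counts set the order. These tests compare libraries, not conditions. Size factors of DESeq2 1.42.0, total counts, other count minimums and the column ignoring strand were tried as alternatives.

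Shared stretches were found on both strands among the 2202 GENCODE hairpins, leaving out hairpins that overlap in the genome. The genome outside hairpins was not searched. Named hairpins were the members, Mir208a, Mir208b, Mir499, Mir486 and Mir3107, the 3 hairpins nearest in level to Mir1a-2, Mir206 and Mir133b, hairpins with a member's seed or annotated over or within 10 kb of a member, and marker lists for epithelial, hepatocyte, neuronal, cardiac muscle, fibroblast, endothelial, leukocyte, erythroid and smooth muscle cells. Members and lists were chosen with earlier results of these data known.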

Additional observations from a re-analysis of the deposited data

How the results depend on the processing

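The summed level of the 7 members was 67.0 CPM of sense counts, 23.9 CPM of all reads, 27.7 CPM of aligned reads and 33.6 CPM in the column that ignores strand, where Mir1a-2 and Mir1b have 0 counts. Leaving out a library gave 64.5 to 69.4 CPM. With a minimum of 50 counts in both libraries 2 members were detected, in place of 5, and leaving out a library gave 5. The 1 called member, Mir1a-2, was not called with total-count scaling, and the column that ignores strand gives it no counts, so both settings had 0 members called, with 0 members at an unadjusted p under 0.05 in the exact binomial test. It was called with DESeq2 size factors, with no filter and with a summed count of at least 50. Of 28 log2 ratios of members under these alternatives, 26 kept their direction and their side of the threshold. With total-count scaling Mir133a-1 was at -0.013 against 0.085. The counts of Mir133b per count of Mir206 were 0.350 in the mean and 0.214 per base of hairpin, a setting chosen after seeing the data. Leaving out a library moved this ratio from 0.259 to 0.441, that of Mir133a-1 to Mir1a-2 from 0.081 to 0.099, and that of Mir133a-2 to Mir1a-1 from 1.11 to 2.80. No paired analysis was possible because both libraries belong to a single group. Counts of 4 to 26 at Mir1a-1, Mir1b and the miR-133 hairpins leave wide intervals, so moderate differences among them were not detectable at this depth.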

Other observations

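Hairpins with and without stretches at another place were unevenly represented across the tables. Of the 1170 annotated hairpins with no window of 22 bases at another hairpin, 269 were detected, and of the 1032 with at least 1 such window 56 were, or 5.43%. Among hairpins with both arms in the RefSeq table, 35.7% of the 577 with no arm at another hairpin were detected. The share was 54.1% of the 61 with some arms there, and 15% of the 20 with all arms there. Median levels of the detected hairpins were 54.9, 106 and 728 CPM in the same order, the last over 3 hairpins. Mir1a-1, Mir1a-2, Mir1b, Mir133a-1 and Mir133a-2 are in none of these arm classes, since that table lacks some or all of their arms. The window and arm classes also differ in which families they hold, and the part of shared sequence in these counts was not tested.

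Mir133c, named like the miR-133 hairpins and looked up after the values were seen, had 0 counts in both libraries. The hepatocyte hairpin Mir122 had 112 and 137 counts, or 28.8 and 27.1 CPM, between Mir1a-2 and Mir206 in level. The epithelial list, with 4 of its 6 hairpins detected, had a summed level of 101 and 193 CPM, above that of the 7 muscle hairpins in both libraries. Both comparisons are of reads given to a single place. They leave out reads lying wholly within the stretches that the miR-1a and miR-133a hairpins share, so levels of all miR-1 and miR-133 reads were not compared.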
